A study of Mus musculus with 78 samples.

Results

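The genes examined were 10 silencers of endogenous retroviruses (ERVs) that act beside or downstream of TRIM28, matched by their symbol among 54446 gene IDs in the RNA-seq tables and 54435 in the TT-SLAM-seq table. They comprised the HUSH complex genes Mphosph8, Fam208a (also named Tasor) and Pphln1, the histone chaperone genes Atrx and Daxx with the MORC family gene Morc3, the SNF2-type remodeller genes Smarcad1 and Hells, and the histone methyltransferase genes Suv39h1 and Suv39h2. All 10 were found in both kinds of table and passed the filter on low values in every comparison.

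TRIM28 is recruited to ERVs by KRAB zinc-finger proteins and brings in the H3K9 methyltransferase SETDB1. The other silencers reach the same kind of chromatin by other routes: HUSH binds H3K9me3 through its chromodomain subunit MPHOSPH8 and also recruits SETDB1, ATRX and DAXX place the histone variant H3.3 in heterochromatin, SMARCAD1 and HELLS remodel nucleosomes there, and SUV39H1 and SUV39H2 write H3K9me3 mainly at pericentromeric repeats. In mouse embryonic stem cells (mESCs) several of these factors keep IAP and other ERV families silent.

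The study followed mESCs of the V6.5 line in which both nascent and steady-state RNA were measured after acute loss of TRIM28. The tagged line, grown from picked colonies, carries an FKBP degron on the N terminus of TRIM28, so that 500 nM dTAG-13 leads to its proteolysis. The mESCs were kept on feeder fibroblasts, which were depleted before the cells were seeded on gelatin for treatment. TT-SLAM-seq reads RNA labelled by a short pulse of 4-thiouridine, and had 3 libraries each in DMSO and after 2, 6 and 24 h of dTAG-13. RNA-seq had 3 each in DMSO and after 2, 6, 24 and 96 h. The DMSO groups of both are labelled 0 h, so the later times had no DMSO group of the same time. The part of time in culture in the differences from DMSO was not tested. Untagged, untreated parental V6.5 mESCs and neural progenitor cells (NPCs) in DMSO had 3 RNA-seq libraries each. The shERV line carries doxycycline-inducible shRNAs against 4 ERV families in addition to the degron and had 3 libraries each in DMSO, in 500 nM dTAG-13 for 24 h and in dTAG-13 with Dox. The treatment text of the labels gives 2 µg/ml Dox for 24 h beforehand to all 3 shERV groups, whereas the treatment tag names Dox in the last group alone, so whether the first 2 groups received Dox could not be settled. The RNA-seq libraries of the shERV line were made from total RNA and the other RNA-seq libraries from polyadenylated RNA, while TT-SLAM-seq used fragmented 4-thiouridine-labelled RNA captured on streptavidin beads. ChIP-seq peak lists covered DMSO and 24 h of dTAG-13, with 3 libraries a group for H3K9me3 and H3K27ac and 2 a group for RNA polymerase II (Pol II) and MED23.

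TT-SLAM-seq values corresponded to totals of 6481999 to 24266191 counted reads per library, and the relative depth of the RNA-seq libraries ran from 0.341 to 1.64 times the median library, the lowest being replicate 1 of the 24 h group. Trim28 RNA, which does not report on degradation of the protein, lay at 622 to 626 TPM in tagged DMSO cells, 365 to 382 TPM at 24 h, 185 to 204 TPM at 96 h and 1387 to 1418 TPM in parental cells. Marker levels placed the groups as labelled, with Pou5f1 at 1141 to 1181 TPM in tagged DMSO cells and at 0 in NPCs, and Fabp7, a neural progenitor marker, at 2609 to 2646 TPM in NPCs. At 96 h the summed level of 16 pluripotency markers was 569 to 649 TPM, against 5534 to 5976 TPM in DMSO. The summed level of 14 fibroblast markers was 379.8 to 408 TPM at 96 h, against 40.2 to 42.1 TPM in DMSO, with Col1a1 at 178 to 188 TPM against 7.85 to 8.58 TPM. The summed level of 14 endoderm markers was 796 to 816 TPM at 96 h, against 197 to 219 TPM in DMSO. Of the 12 tested, 9 were higher and 3 lower at 96 h, against 42.9% and 37.4% of all genes. The part of these markers in the 96 h results was not tested. In these bulk samples fewer cells of a type and less RNA per cell cannot be told apart.

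In tagged mESCs in DMSO the silencers were well expressed genes. Hells, a remodeller needed for DNA methylation of repeats, was highest at 206 ± 4.68 TPM (SD, n = 3 here and for the following means), followed by Atrx at 142 ± 6.91 TPM. Pphln1, Mphosph8, Smarcad1, Daxx and Morc3 lay close together, from 88.7 ± 4.02 TPM for Pphln1 to 71.0 ± 2.20 TPM for Morc3. Pphln1 overlapped Mphosph8 and Smarcad1 overlapped Daxx, so neither pair differed beyond the spread of the libraries. Suv39h1 at 41.2 ± 3.72 TPM and Fam208a at 40.8 ± 0.79 TPM also overlapped, and Suv39h2 was lowest at 28.0 ± 4.12 TPM. The genes stood between the 68.5th (Suv39h2) and the 95.9th percentile (Hells) of the levels of the 17922 genes tested in the time course.

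**Figure D1:**
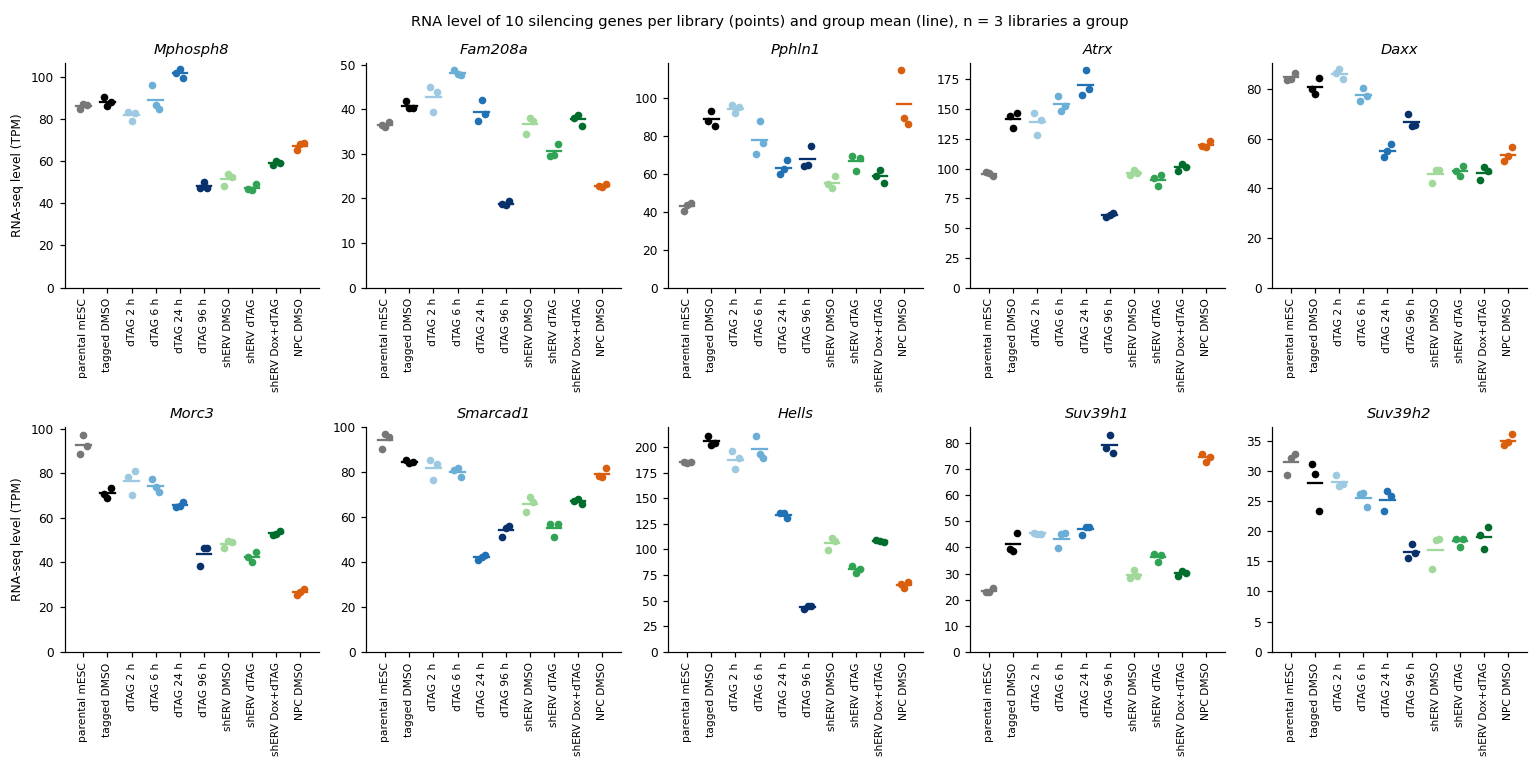
RNA-seq level in TPM of each of the 10 genes (vertical axes, each starting at 0) in the 10 groups of libraries; points are libraries and lines the means of 3. Hells and Atrx drop at 96 h, from 206 ± 4.68 to 43.9 ± 1.63 TPM for Hells (SD), while Suv39h1 is higher there.

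The promoter sequences of 4 genes are shown because the results below turn on them: Hells had the deepest loss of RNA, Smarcad1 was the gene whose RNA was lower at 24 h with a higher Pol II peak at its start, and the paralogs Suv39h1 and Suv39h2 moved apart at 96 h. Each is the stretch of 250 bases before a RefSeq start on GRCm38.p6, read 5′ to 3′ on the strand of the gene, at chr19:38930740-38930989 (plus strand) for Hells, chr6:65042341-65042590 (plus) for Smarcad1, chrX:8074761-8075010 (minus) for Suv39h1 and chr2:3474987-3475236 (minus) for Suv39h2. Capitals mark the CCAAT box, the GC box core GGGCGG or the E2F-type sequence TTCCCGC on either strand.
Hells: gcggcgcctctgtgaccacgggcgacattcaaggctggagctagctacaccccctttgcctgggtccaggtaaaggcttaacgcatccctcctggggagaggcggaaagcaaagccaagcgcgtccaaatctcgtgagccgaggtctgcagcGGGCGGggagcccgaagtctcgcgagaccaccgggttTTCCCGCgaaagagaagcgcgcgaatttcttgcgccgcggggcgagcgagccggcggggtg
Smarcad1: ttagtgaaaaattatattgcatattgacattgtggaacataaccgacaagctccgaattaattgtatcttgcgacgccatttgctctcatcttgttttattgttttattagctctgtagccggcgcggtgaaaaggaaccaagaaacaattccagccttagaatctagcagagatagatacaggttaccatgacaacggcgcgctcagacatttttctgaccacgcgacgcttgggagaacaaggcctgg
Suv39h1: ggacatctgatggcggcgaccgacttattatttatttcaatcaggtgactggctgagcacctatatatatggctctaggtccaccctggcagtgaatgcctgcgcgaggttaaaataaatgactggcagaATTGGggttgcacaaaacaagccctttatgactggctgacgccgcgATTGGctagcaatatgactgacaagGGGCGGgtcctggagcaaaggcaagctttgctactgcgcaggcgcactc
Suv39h2: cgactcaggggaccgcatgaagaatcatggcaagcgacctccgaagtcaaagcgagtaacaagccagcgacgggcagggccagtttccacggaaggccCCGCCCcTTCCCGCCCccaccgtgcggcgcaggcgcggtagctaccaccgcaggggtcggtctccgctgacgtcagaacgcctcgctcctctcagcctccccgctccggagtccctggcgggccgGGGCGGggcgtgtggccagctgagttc
The annotated gene start used for the peaks lies 75 bases upstream of the RefSeq start for Hells, 45 for Suv39h2, 8 for Smarcad1 and 0 for Suv39h1, so the last bases printed can be transcribed.

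Besides these motifs, the ETS-type sequence CCGGAAG, the E-box CACGTG, the NRF1-type sequence GCGCATGC, the YY1-type sequence AAGATGGC and the TATA-type sequence TATAAA were searched on both strands of the 250 bases before the starts of all 10 genes. GGGCGG was found in 7 of the 10 and in 33.0% of 27018 RefSeq promoters with 1 start a gene, and CCAAT in 6 of the 10 and 34.5%. TTCCCGC was found before Hells (first base at -61 from the start) and Suv39h2 (at -145, where it overlaps a GGGCGG match on the other strand) and in 3.85% of promoters. Smarcad1 and Pphln1 held none of the 8 motifs. The ETS-type sequence was found before Daxx (7.07% of promoters) and the NRF1-type one before Morc3 (2.31%). The E-box (6.04%), the YY1-type sequence (1.58%) and the TATA-type sequence (13%) were found before none of the 10. The stretch before Pphln1 was 78.8% G and C with 46 CG pairs and that before Smarcad1 43.2% with 13, against medians of 52.0% and 6 over all promoters. These matches describe letters in the window only.

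The time course asked how nascent and steady-state RNA moved after TRIM28 was lost. Differences are on the log2(value + 0.5) scale, dTAG-13 minus DMSO, and a gene is said to have risen or fallen where the limma p-value, adjusted over all genes tested, was below 0.05. At 2 h none of the 10 genes passed by either assay. The shares of all genes that passed were 1.58% higher and 1.97% lower of 13357 in TT-SLAM-seq, and 8.25% higher and 7.02% lower of 17922 in RNA-seq. At an unadjusted p under 0.05, 1 of the 10 genes was counted in TT-SLAM-seq and 3 in RNA-seq, against 21.2% and 28.7% of all genes.

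The member counted in TT-SLAM-seq was Pphln1. Nascent Pphln1 read 2.78, 2.50 and 2.00 FPKM at 2 h and 1.93, 1.70 and 1.67 FPKM in DMSO, a log2 difference of 0.36 ± 0.09 (SE, limma adjusted p = 0.065). PPHLN1, also called periphilin, is a subunit of HUSH that binds RNA. With reads recovered from the FPKM values and tested with limma's voom weights, this difference was 0.51 ± 0.09 (SE, adjusted p = 0.00186), and it passed also after each library was centred on its median.

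At 6 h Atrx rose in nascent RNA and Fam208a in steady-state RNA, and none of the 10 fell before centring. Nascent Atrx, which encodes the ATP-dependent partner of DAXX, read 3.02, 2.4 and 3.17 FPKM at 6 h against 1.59, 1.43 and 1.89 FPKM in DMSO, a log2 difference of 0.65 ± 0.17 (SE, limma adjusted p = 0.0431). All 3 libraries at 6 h lay above those in DMSO, and the share of all genes for which this held was not counted. The call was lost when any of 4 libraries was left out (replicates 1 and 2 in DMSO, 1 and 3 at 6 h), with an adjusted p of 0.117 to 0.138. Fam208a, the gene of the scaffold subunit of HUSH, rose in RNA-seq from 41.8, 40.4 and 40.4 TPM to 48.9, 47.9 and 47.7 TPM, by 0.23 ± 0.05 (SE, limma adjusted p = 0.00371). Nascent Hells read 5.44, 3.84 and 5.35 FPKM at 6 h and 3.29, 2.98 and 3.78 FPKM in DMSO. It did not pass the test (0.47 ± 0.18 SE, limma adjusted p = 0.126). Nascent Smarcad1 did not pass either, at 3.43, 3.02 and 3.34 FPKM against 2.75, 2.39 and 2.51 FPKM (0.30 ± 0.09 SE, limma adjusted p = 0.0671). The background at 6 h was 7.82% of genes higher and 1.27% lower in TT-SLAM-seq, and 18.4% higher (3296) and 15.5% lower (2783) in RNA-seq, where after each library was centred on its median 2023 were higher and 4710 lower. After that centring 4 of the 10 genes also fell in RNA-seq at 6 h, Pphln1 by -0.28, Smarcad1 by -0.17 and Daxx and Hells by -0.15 each (limma adjusted p = 0.00837 to 0.0211), beside the rise of Fam208a.

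At 24 h steady-state RNA of 4 genes fell and that of 3 rose, against 25.0% of all genes lower and 42.9% higher. Smarcad1, which encodes a remodeller known to help TRIM28 at ERVs in mESCs, fell most, from 85.2, 84.0 and 84.3 TPM to 40.7, 42.3 and 43.0 TPM. The log2 difference was -1.0006 ± 0.05 (SE, limma adjusted p = 4.50e-10). Smarcad1 alone of the 10 was past 2-fold, by far less than its SE, against 2.01% of all genes lower by that much. Hells fell from 211, 202 and 204 TPM to 135, 136 and 131 TPM, by -0.62 ± 0.05 (SE, limma adjusted p = 3.77e-08). Daxx, the H3.3 chaperone gene, fell from 80.2, 78.2 and 84.3 TPM to 52.4, 55.1 and 57.7 TPM, by -0.55 ± 0.04 (SE, limma adjusted p = 8.70e-08). Pphln1 fell from 87.8, 93.1 and 85.2 TPM to 59.7, 62.6 and 67.2 TPM, by -0.49 ± 0.08 (SE, limma adjusted p = 6.61e-05). In these 4 genes, and in Morc3 without a call, all libraries at 24 h lay below DMSO, as in 26.2% of all genes.

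Atrx (161, 182 and 167 TPM, 0.26 ± 0.06 SE, limma adjusted p = 9.77e-04), Mphosph8 (102, 104 and 99.6 TPM, 0.20 ± 0.05 SE, limma adjusted p = 0.00137) and Suv39h1 (44.8, 48.0 and 48.0 TPM, 0.19 ± 0.06 SE, limma adjusted p = 0.0172) rose at 24 h, but all 3 turned to small negative differences that did not pass (-0.02, -0.09 and -0.10) once each library was centred on its median. The groups overlapped for Suv39h1, where 1 DMSO library read 45.5 TPM, and its call was lost when any of 4 libraries was left out (replicates 1 and 2 in DMSO, 2 and 3 at 24 h), with an adjusted p of 0.055 to 0.0809. The median log2 difference of all 17922 genes at 24 h was 0.13, and that of the 10 genes -0.12. After centring on the median, 4643 genes were higher and 7900 lower at 24 h, where without centring 7681 were higher and 4486 lower. Fam208a, Morc3 and Suv39h2 did not pass at 24 h (-0.05 ± 0.05, -0.11 ± 0.07 and -0.14 ± 0.09, SE), but all 3 fell after centring (-0.34, -0.40 and -0.43, limma adjusted p = 3.00e-05, 9.65e-05 and 9.50e-04), so that 7 of the 10 genes fell and none rose on that scale.

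In nascent RNA at 24 h 1 of the 10 genes fell and 1 rose. Smarcad1 fell, from 2.75, 2.39 and 2.51 FPKM to 1.77, 1.94 and 1.84 FPKM, by -0.37 ± 0.09 (SE, limma adjusted p = 0.00956), and Mphosph8 rose from 1.68, 1.72 and 1.62 FPKM to 2.12, 2.61 and 2.16 FPKM, by 0.36 ± 0.12 (SE, limma adjusted p = 0.0394). Both were among the 5 of the 10 genes whose libraries did not overlap DMSO, as was so for 49.6% of all genes in either direction. The call on Mphosph8 was lost when any of the 6 libraries compared was left out, and after centring (0.12, adjusted p = 0.392). Of all 13357 genes 32.3% were higher (4316) and 5.59% lower (747), with a median log2 difference of 0.21, and after centring 1858 were higher and 2249 lower. Relative to that shift, nascent Daxx, Suv39h2, Fam208a and Pphln1 also fell after centring (-0.47, -0.32, -0.28 and -0.27), and with recovered reads, so that 5 genes fell and none rose on either scale. Hells and Pphln1, which fell in steady-state RNA, read 3.05, 4.05 and 3.09 and 1.70, 1.72 and 1.74 FPKM in nascent RNA at 24 h, overlapping DMSO, with differences of 0.01 ± 0.18 and -0.03 ± 0.09 (SE). The difference between the assays itself was not tested.

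**Figure D2:**
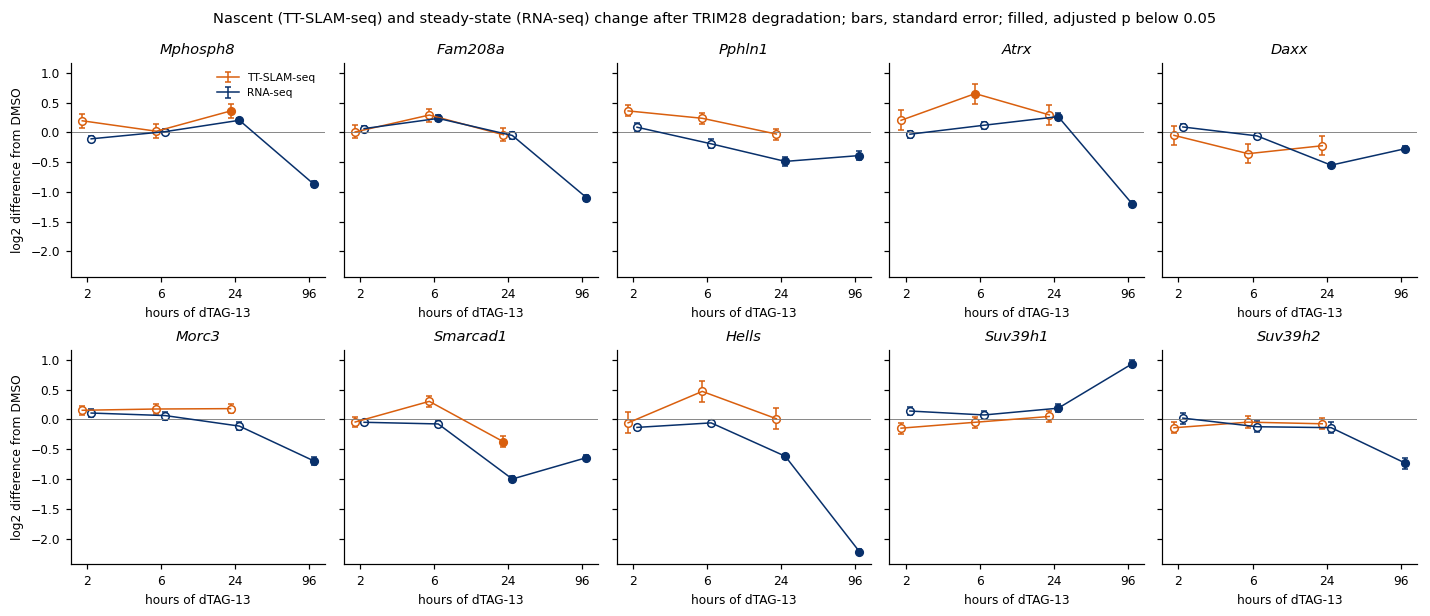
Log2 difference from DMSO (vertical axis) after 2, 6, 24 and 96 h of dTAG-13 in nascent RNA (orange, TT-SLAM-seq) and steady-state RNA (blue, RNA-seq); bars are standard errors, and filled points passed the adjusted p of 0.05. Steady-state Hells reaches -2.22 and Suv39h1 0.94 at 96 h.

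At 96 h all 10 genes had changed in steady-state RNA: 9 were lower and Suv39h1 was higher, against 37.4% of all genes lower (6704) and 42.9% higher (7681), or 8714 and 6037 after centring. Hells read 42.0, 44.7 and 44.9 TPM, a log2 difference of -2.22 ± 0.05 (SE, limma adjusted p = 1.31e-14). Atrx read 59.6, 61.1 and 62.8 TPM (-1.20 ± 0.06 SE, limma adjusted p = 7.43e-11) and Fam208a 18.7, 18.4 and 19.4 TPM (-1.10 ± 0.05 SE, limma adjusted p = 6.61e-11). These 3 were past 2-fold, against 12.4% of all genes lower by that much. The other falls were -0.87 for Mphosph8, -0.73 for Suv39h2, -0.69 for Morc3, -0.64 for Smarcad1, -0.39 for Pphln1 and -0.27 for Daxx, and no library of any of the 10 overlapped the DMSO range, as was so for 83.1% of all genes. The count was 10 without any single library.

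Suv39h1 stood apart. It rose from 39.3, 38.7 and 45.5 TPM to 78.1, 83.2 and 76.2 TPM, by 0.94 ± 0.06 (SE, limma adjusted p = 4.28e-09), while its paralog Suv39h2 went from 31.2, 29.5 and 23.3 TPM to 15.5, 17.8 and 16.3 TPM. The ratio of Suv39h1 to Suv39h2 TPM was 1.26 to 1.95 in DMSO, 1.80 to 1.93 at 24 h and 4.67 to 5.05 at 96 h. It was 2.07 to 2.22 in NPCs and 0.718 to 0.778 in parental mESCs, and the 96 h range overlapped no other group.

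**Figure D3:**
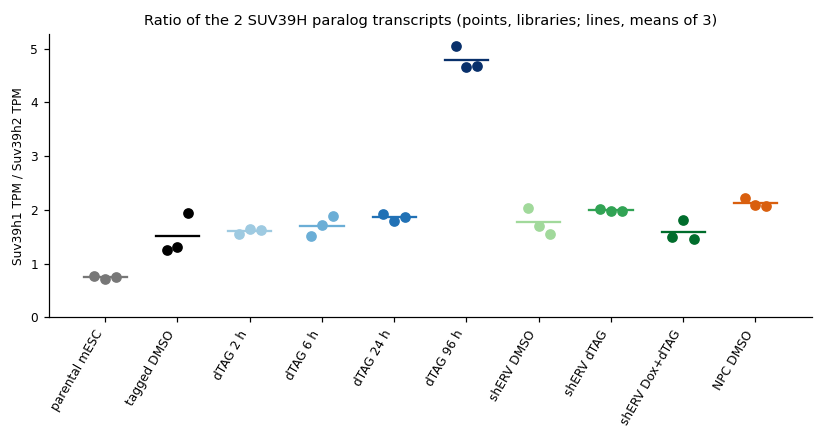
Ratio of Suv39h1 TPM to Suv39h2 TPM (vertical axis) per library in the 10 groups, with lines at the means of 3. The 96 h libraries lie at 4.67 to 5.05 and the parental libraries at 0.718 to 0.778.

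Between 24 h and 96 h the genes took different courses. Relative to 24 h, 6 fell and 3 rose, against 42.0% of all genes lower and 37.4% higher. Hells (-1.60), Atrx (-1.47), Mphosph8 (-1.07) and Fam208a (-1.04) fell past 2-fold, as did 16.5% of all genes. Suv39h2 (-0.60) and Morc3 (-0.58) also fell. Smarcad1 rose from 40.7, 42.3 and 43.0 TPM at 24 h to 51.0, 55.0 and 56.1 TPM at 96 h (0.36 ± 0.05 SE, limma adjusted p = 4.47e-06), Daxx from 52.4, 55.1 and 57.7 TPM to 69.8, 65.2 and 65.4 TPM (0.28 ± 0.04 SE, limma adjusted p = 4.73e-05), and Suv39h1 by 0.75. Pphln1 did not pass (0.10 ± 0.08, SE). Smarcad1 and Daxx thus had their lowest level of the time course at 24 h.

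Known partners of these proteins were described as 5 lists of 32 genes, of which 31 were tested in RNA-seq. At 24 h 8 rose and 12 fell, with a median log2 difference of -0.05, and at 96 h 4 rose and 25 fell, with a median of -0.51 against 0.05 over all genes. The shares of all genes were those given above, 42.9% higher and 25.0% lower at 24 h and 42.9% and 37.4% at 96 h. After centring 2 partners rose and 25 fell at 24 h, and 2 rose and 28 fell at 96 h. The 6 HUSH partners, among them Setdb1 and Morc2a, all fell at 96 h and none past 2-fold. The 6 genes of chromatin assembly and of HELLS partners also all fell at 96 h, 4 of them past 2-fold: Cdca7 (-1.72), which encodes the DNA-binding partner of HELLS, its paralog Cdca7l (-1.70), Chaf1b (-1.13), a subunit of the CAF-1 chaperone, and Uhrf1 (-1.02), which guides maintenance DNA methylation. Of 9 partners of SUV39H in H3K9 and H4K20 methylation, 7 fell and 1 rose at 96 h. Trim28 (-1.70), the gene of the degraded protein, and Cbx1 (-1.60), the gene of HP1 beta, fell past 2-fold. Of 8 ATRX-DAXX and H3.3 partners, 5 fell and 2 rose, and the H3.3 chaperone gene Asf1a fell past 2-fold (-1.18). Of the MORC family genes Morc1, which represses ERVs in the germ line, fell at 96 h (-3.98 ± 0.11 SE, limma adjusted p = 2.72e-13) and Morc4 rose (2.54 ± 0.06 SE, limma adjusted p = 2.67e-14), while Morc2b was not tested. At 24 h the only partner past 2-fold was Kmt5c, an H4K20 methyltransferase gene, which was higher (1.07 ± 0.06 SE, limma adjusted p = 2.89e-09), though not past 2-fold after centring, where Trim28, Asf1a and Morc1 were lower by that much. Of 30 DNA replication and cell cycle genes, 27 fell and 2 rose at 96 h with a median of -0.69 (28 and 0 after centring), and Mki67 read 60.4 to 62.9 TPM against 90.5 to 95.8 TPM in DMSO. The part of this list in the fall of the silencers was not tested. In nascent RNA 28 partners were tested, of which 8 were higher and 4 lower at 24 h, against 32.3% and 5.59% of all genes, and 2 higher and 7 lower after centring.

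Peaks at the gene starts were examined within 1000 bases of the annotated start. Every one of the 10 genes had a Pol II peak in both DMSO libraries and in both 24 h libraries, where 54.2% and 54.3% of the 17922 tested genes had one in DMSO and 30.9% and 28.2% at 24 h. H3K27ac, a mark of active promoters, was called at all 10 in each DMSO library (63.4% to 66.1% of all genes) and at 24 h at all but Suv39h2 in replicate 1 (43.4% to 67.5%). MED23, a Mediator subunit, was called at all 10 in DMSO (73.9% of all genes in each library) and at 7 and 6 of 10 in the 24 h libraries (25.0% and 22.5%), with no 24 h peak at Pphln1, Smarcad1 and Suv39h1 and 1 of 2 at Morc3. Peaks were called per library, and the 24 h Pol II libraries held 8182 and 7689 peaks against 19853 and 19194 in DMSO, so the absence of a peak is not absence of the protein.

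Smarcad1 differed from the other 9 in Pol II. Its highest peak was enriched over background, as a fold given by the peak caller, by 8.53 and 7.22 in DMSO and 12.3 and 14 at 24 h, when its RNA was at its lowest. In DMSO the peak reached from 304 or 204 bases before to 1451 or 1505 bases after the start, and at 24 h from 50 or 49 bases before to 582 or 607 bases after. Hells, the next in this order, had 12.3 and 12.3 in DMSO and 9.75 and 9.05 at 24 h. The ratio of the means, 24 h over DMSO, was 1.67 for Smarcad1, 0.765 for Hells and between 0.314 (Mphosph8) and 0.551 (Morc3) for the other 8. Over 4793 genes with a Pol II peak in all 4 libraries the median ratio was 0.488, Smarcad1 lay at the 98.8th percentile, and 5.99% of these genes had both 24 h libraries above both DMSO libraries. With 2 libraries a group and no scaling between libraries this is a description without a test.

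**Figure D4:**
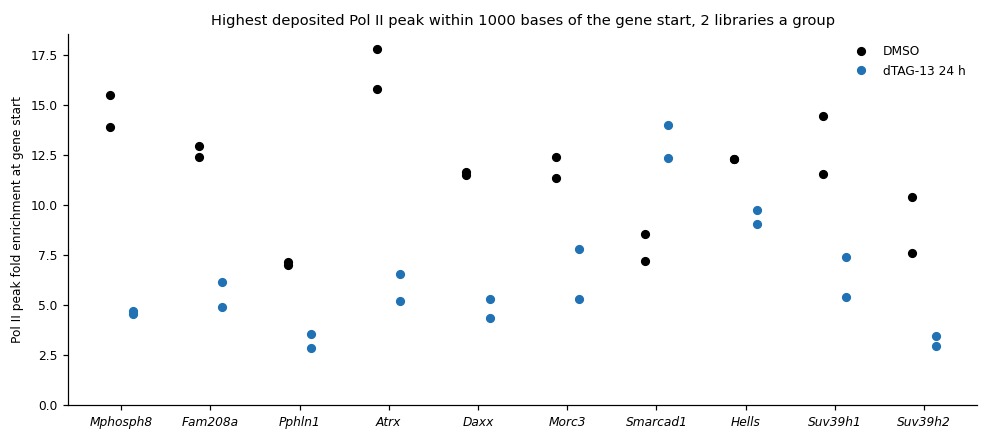
Fold enrichment of the highest deposited Pol II peak within 1000 bases of the gene start (vertical axis) per library in DMSO (black) and after 24 h of dTAG-13 (blue), 2 libraries each. In Smarcad1 both 24 h libraries (12.3 and 14) lie above both DMSO libraries (8.53 and 7.22), and in the other 9 genes they lie below.

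H3K9me3 peaks were examined both at the starts and across the gene spans. Fam208a was the only one with a peak near its start, in 3 of 3 DMSO and 2 of 3 libraries at 24 h, where 4.00% to 5.12% and 0.452% to 2.81% of all genes had one. In DMSO these peaks were 303 to 743 bases long with a fold enrichment of 2.24 to 3.16. At 24 h they were 991 and 327 bases long in replicates 2 and 3, with a fold enrichment of 3.83 and 2.17. None of these peaks was kept with a −log10 q of at least 5. Within the gene spans, peaks were called in 3, 2 and 3 of the 10 genes in the DMSO libraries and in 0, 0 and 1 at 24 h. Atrx had H3K9me3 peaks in 3 of 3 DMSO libraries, all between 4363 and 6214 bases after its start, and in 0 of 3 at 24 h. Smarcad1 had them in 2 of 3 and 0 of 3, at 61666 to 62758 bases after its start. Over all genes the share with a peak in the span went from 20.3% to 23.4% in DMSO to 3.28% to 11.8% at 24 h, where replicate 1 held 11474 peaks in all against 105690 and 147611 in the other 2.

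The shERV line asked whether knock-down of ERV transcripts alters the response at 24 h. With dTAG-13 alone, 4 of the 10 genes fell and 2 rose, against 12.8% of all genes lower and 41.2% higher. Hells fell from 99.5, 111 and 108 TPM to 83.9, 76.9 and 81.0 TPM, by -0.40 ± 0.05 (SE, limma adjusted p = 4.25e-05). Fam208a fell from 34.6, 38.1 and 37.5 TPM to 29.6, 29.8 and 32.2 TPM, by -0.26 ± 0.05 (SE, limma adjusted p = 0.00165), and Smarcad1 from 62.0, 68.7 and 66.9 TPM to 57.0, 51.1 and 57.0 TPM, by -0.26 ± 0.05 (SE, limma adjusted p = 0.00183). Morc3, which encodes a SUMO-binding ATPase that silences ERVs with DAXX, fell by -0.19 ± 0.05 (SE, limma adjusted p = 0.00732). Suv39h1 rose from 28.1, 31.5 and 28.9 TPM to 37.7, 34.6 and 37.1 TPM, by 0.30 ± 0.06 (SE, limma adjusted p = 8.03e-04), and Pphln1 by 0.26 ± 0.06 (SE, limma adjusted p = 0.00378). The median of all genes was 0.14, with 6667 higher and 2062 lower. After centring, 4189 were higher and 4789 lower, the call on Pphln1 was lost, Mphosph8 (-0.28) and Atrx (-0.26) also fell, and Daxx turned to -0.12 (adjusted p = 0.0308).

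With Dox added, these differences were smaller. Dox + dTAG-13 against dTAG-13, 6 genes were higher and 2 lower, against 17.5% of all genes higher (2825) and 29.3% lower (4737), or 4570 and 4123 after centring. Hells read 109.8, 109 and 107 TPM (0.43 ± 0.05 SE, limma adjusted p = 3.30e-05), Morc3 52.4, 52.7 and 54.2 TPM (0.32 ± 0.05 SE, limma adjusted p = 2.70e-04) and Mphosph8 58.0, 59.9 and 59.0 TPM (0.31 ± 0.05 SE, limma adjusted p = 2.89e-04). Fam208a (0.30), Smarcad1 (0.28) and Atrx (0.16) were also higher. Suv39h1 (28.9, 31.1 and 30.2 TPM, -0.27 ± 0.06 SE, limma adjusted p = 0.00197) and Pphln1 (-0.18, limma adjusted p = 0.0336) were lower, Pphln1 with overlapping libraries. This comparison shares its dTAG-13 libraries with the one before it, so opposite signs in the 2 are not independent. The call on Atrx was lost without replicate 2 of either group (adjusted p = 0.0659 and 0.0707), and that on Pphln1 when any of 4 libraries was left out (replicates 1 and 3 of each group), and after centring.

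Dox + dTAG-13 against DMSO, none of the 10 genes passed with limma, and 0.0619% of all genes (10 of 16166) did in either direction. At an unadjusted p under 0.05, 2 of the 10 genes and 2911 of all genes (18.0%) were counted. The largest differences among the 10 were 0.20 ± 0.05 (SE, limma adjusted p = 0.191) for Mphosph8, whose libraries did not overlap, 0.17 ± 0.11 (SE, limma adjusted p = 0.368) for Suv39h2 and 0.13 ± 0.05 (SE, limma adjusted p = 0.232) for Morc3. Hells differed by 0.03 ± 0.05, Smarcad1 by 0.03 ± 0.05 and Suv39h1 by 0.03 ± 0.06 (SE). A p above the threshold does not show that the groups were equal. Beside the silencers, the 16 pluripotency markers summed to 2832 to 3250 TPM in DMSO, 1501 to 1534 TPM with dTAG-13 and 3138 to 3195 TPM with Dox + dTAG-13, and their part was not tested. Of the partners, Morc1 was lower with dTAG-13 (-1.11 ± 0.08 SE, limma adjusted p = 6.01e-07) and higher again with Dox (1.18 ± 0.08 SE, limma adjusted p = 4.56e-07).

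**Figure D5:**
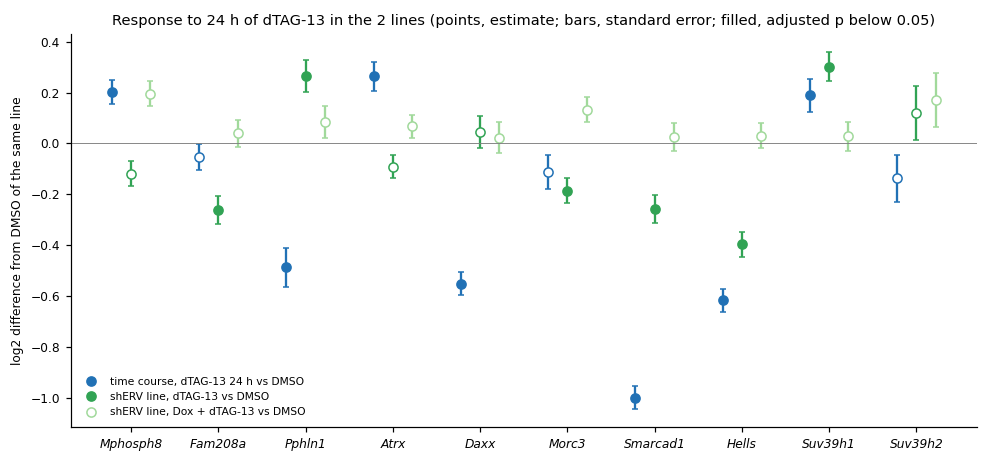
Log2 difference from the DMSO group of the same line after 24 h (vertical axis) for the 10 genes in the time course (blue), in the shERV line with dTAG-13 (green) and with Dox + dTAG-13 (light green); bars are standard errors and filled points passed the adjusted p of 0.05. Smarcad1 is at -1.0, -0.26 and 0.03 in the 3 comparisons.

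The response at 24 h was not the same in the shERV line and in the time course. As an interaction in 1 fit, it differed for 7 of the 10 genes, against 51.4% of 17653 genes in either direction. Smarcad1, Daxx, Pphln1 and Hells, which fell in the time course, had responses higher by 0.74 ± 0.07, 0.60 ± 0.08, 0.75 ± 0.09 and 0.22 ± 0.07 (SE) in the shERV line. Daxx read 41.9, 47.4 and 47.6 TPM in DMSO and 46.9, 45.1 and 49.1 TPM with dTAG-13 in the shERV line, with overlapping libraries. Pphln1 fell in the time course and rose in the shERV line. Atrx (-0.36 ± 0.08), Mphosph8 (-0.32 ± 0.07) and Fam208a (-0.21 ± 0.08) had lower responses in the shERV line. The call on Fam208a was lost in 9 of the 12 fits without 1 library (adjusted p 0.0545 to 0.111), without a filter (0.0708) and after centring, where the difference shrank to -0.09 (0.237) while Suv39h1 passed (0.23, 0.0192). With the replicate number as a block the calls on Fam208a and Hells were lost (adjusted p = 0.0699 and 0.0524). The lines differ in library kit and in the shRNA construct. Their DMSO groups are labelled 0 h in the time course and 24 h in the shERV line. In DMSO the fibroblast markers summed to 145 to 155 TPM in the shERV line and 40.2 to 42.1 TPM in the tagged line, and the pluripotency markers to 2832 to 3250 and 5534 to 5976 TPM. These cannot be told apart here.

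Comparison of untagged parental with tagged DMSO cells showed lower levels of 5 genes and higher levels of 2 in parental cells, against 41.0% of all genes lower (7161) and 25.0% higher (4364), or 4698 and 7292 after centring. On the centred scale 3 of the 10 were lower and 5 higher. Pphln1 was at 40.3, 43.2 and 44.5 TPM in parental cells, lower by more than 2-fold (-1.05 ± 0.10 SE, limma adjusted p = 9.75e-06), as were 9.15% of all genes. After centring it was still lower, though not past 2-fold. Suv39h1 was at 22.8, 23.1 and 24.5 TPM (-0.80 ± 0.06 SE, limma adjusted p = 2.30e-06) and Atrx at 97.0, 96.2 and 93.6 TPM (-0.56 ± 0.04 SE, limma adjusted p = 9.78e-07). Morc3 was higher, at 88.6, 97.1 and 92.2 TPM (0.38 ± 0.05 SE, limma adjusted p = 7.59e-05), and so was Smarcad1 (0.16). Fam208a (-0.16) and Hells (-0.15) were lower, but both were slightly positive (0.04 each) and did not pass after centring. Mphosph8 (0.16), Daxx (0.26) and Suv39h2 (0.37) passed as higher only after centring (limma adjusted p = 9.94e-04, 3.10e-04 and 0.00890). The tagged line also differs from the parental one by its clonal origin and by DMSO, and the parental libraries had more fibroblast marker RNA (131 to 134 TPM summed). The 2-cell markers summed to 14.8 to 15.4 TPM in parental and 181 to 199 TPM in tagged DMSO cells. The pluripotency markers summed to 7926 to 8029 TPM in parental and 5534 to 5976 TPM in tagged DMSO cells. These cannot be told apart from the tag.

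NPCs, which divide but have left pluripotency, had 7 of the 10 genes lower and 2 higher than tagged mESCs in DMSO, against 39.5% of all genes lower (6898) and 49.5% higher (8639), or 9077 and 6408 after centring. Hells was at 65.9, 62.7 and 68.1 TPM (-1.64 ± 0.03 SE, limma adjusted p = 3.11e-11) and Morc3 at 25.2, 26.7 and 28.0 TPM (-1.40 ± 0.05 SE, limma adjusted p = 1.45e-09), both past 2-fold, as were 20.7% of all genes. Fam208a (22.8, 22.6 and 23.2 TPM, -0.82 ± 0.03 SE, limma adjusted p = 1.67e-09) and Daxx (50.8, 52.8 and 56.7 TPM, -0.59 ± 0.04 SE, limma adjusted p = 5.02e-07) followed, then Mphosph8 (-0.39), Atrx (-0.24) and Smarcad1 (-0.09). Suv39h1 was higher at 76.1, 73.0 and 74.8 TPM (0.85 ± 0.06 SE, limma adjusted p = 3.18e-07), and Suv39h2 at 34.2, 34.7 and 36.1 TPM (0.33 ± 0.09 SE, limma adjusted p = 0.00806), though the latter turned to -0.07 and did not pass after centring, where Pphln1 was lower (-0.28, limma adjusted p = 0.0194). The median of all genes was 0.15. Among the partners Morc1 (-5.64), Atf7ip2 (-3.13), Pml (-2.87), Resf1 (-2.09) and Trim28 (-1.12) were lower past 2-fold, and Wiz (1.22), a partner of the G9a methyltransferase, was higher. After centring 7 partners were lower past 2-fold and none was higher by that much.

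Over the 10 RNA-seq group means the genes fell into patterns that can be described by Pearson's r of log2(TPM + 0.5), with library kit and line shared among groups and no test. Fam208a and Hells ran most alike among the 10 (r = 0.925), followed by Morc3 and Hells (0.844) and by Mphosph8 and Atrx (0.831). Suv39h1 ran against Fam208a (-0.639), Hells (-0.574) and Morc3 (-0.561). Among all genes with a mean of at least 5 TPM, Hells was most like Gar1 (0.982), Wdr31 (0.981) and Sinhcaf (0.981). Mphosph8 was most like Orc3 (0.989), Ncapd3 (0.988) and Mms22l (0.986), and Atrx like Ddx11 (0.979), Zgrf1 (0.977) and Ccdc14 (0.975). Suv39h1 was most like Ogfr (0.980), AI837181 (0.980) and Ctdsp1 (0.978), and Suv39h2 like Dek (0.986), Bzw2 (0.983) and Nudcd1 (0.983). For Smarcad1 these were Magoh (0.963), Ttc33 (0.952) and Psmc5 (0.944), for Daxx Mrpl44 (0.988), Eif3g (0.986) and Ahcy (0.983), and for Morc3 AC154306.1 (0.988), Orc1 (0.986) and Trim13 (0.984). Pphln1 had the weakest best match (Jmjd4, 0.959, then Gm49416, 0.954, and Pyroxd1, 0.935). Fam208a was most like Gm24616 (0.985), Snord55 (0.980) and Snhg3 (0.979).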

How the data were processed

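TT-SLAM-seq, RNA-seq and ChIP-seq of mouse cells were analysed on mm10 (GRCm38). The authors deposited FPKM for TT-SLAM-seq, made from T-to-C converted reads mapped with SLAM-DUNK and counted by strand with htseq-count. Their steps gave back whole reads for 100.0% of values of up to 20 reads (tolerance 0.1), with the gene span as length, so FPKM were not compared between genes. The deposited RNA-seq tables hold TPM and FPKM from StringTie 2.0.6 after STAR 2.7.5a and cutadapt 2.4, per the submitters' processing notes. The deposited coverage signal was used for relative depth. Whether strand was used there is not given in the sources used here. The deposited peaks, from MACS2 per library, carry a fold enrichment ratio and −log10 p and q of the authors' caller. Libraries were grouped by their labels, and p-values measure the spread between libraries. The study calls the replicates of the time course and of the shERV line biological. Whether they were separate cultures is not given for these libraries in the sources used here. Genes with at least 0.5 FPKM or 1 TPM in at least 3 libraries entered limma (version 3.58.1, R 4.3.3, trended eBayes) as log2(value + 0.5), jointly over the groups of an experiment, with Benjamini-Hochberg adjustment over all genes; scripts were tested on simulated data. Such differences understate changes of low genes. The text names all 10 genes, partners past adjusted p 0.05 and 2-fold in some comparisons, and for each gene the 3 most like it. Partners past both are not named for 96 h against 24 h (1 higher, 7 lower), parental against tagged cells (1 higher, 1 lower) and the interaction (1 lower). Of 6 planned markers it names Pou5f1, Fabp7, Col1a1 and Mki67, and leaves out Nanog and Gata6. The genes and lists were chosen with earlier results of these data known. Alternatives were other pseudocounts (0.1, 1), filters, centring, FPKM or recovered reads, fits of 2 groups, a replicate block and leaving out libraries. Promoters came from RefSeq (GRCm38.p6), where all 10 genes matched.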

Additional observations from a re-analysis of the deposited data

Results flagged for a closer look

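The response to 24 h of dTAG-13 in the shERV line was not that of the time course in 7 of the 10 genes, tested as an interaction with limma over 17653 genes, of which 51.4% passed in either direction. The shERV response was higher for Pphln1 by 0.75 (adjusted p = 2.68e-05), Smarcad1 by 0.74 (8.47e-06), Daxx by 0.60 (8.96e-05) and Hells by 0.22 (0.0162). It was lower for Atrx (-0.36, adjusted p = 0.00234), Mphosph8 (-0.32, 0.00148) and Fam208a (-0.21, 0.0430). The calls on Fam208a and Hells were lost with a replicate block, and that on Fam208a also after centring. The shERV libraries were made with another kit, and their DMSO group is labelled 24 h, where that of the time course is labelled 0 h. Line, kit and time of the DMSO group cannot be told apart.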

How the results depend on the processing

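Of 140 values (10 genes in 14 comparisons) 67 passed, and 53 of these passed in the same direction under every alternative run. Centring each library on its median reversed 9 of the differences that passed before or after it. Changes of sign in differences that passed neither time were not counted. The 9 were, at 24 h in RNA-seq, Atrx (-0.025), Mphosph8 (-0.087) and Suv39h1 (-0.10), and with dTAG-13 in the shERV line Daxx (-0.12). The others were Fam208a (0.037), Hells (0.042) and Mphosph8 (0.16) in parental cells, and Pphln1 (-0.28) and Suv39h2 (-0.067) in NPCs. The cause was not tested. It also moved the number of genes called from 0 to 1 in TT-SLAM-seq at 2 h, from 2 to 5 at 24 h and from 1 to 5 in RNA-seq at 6 h, the added calls at 6 and 24 h being falls. The TT-SLAM-seq counts of 0, 1 and 2 at 2, 6 and 24 h were 1, 2 and 5 with recovered reads. Without a filter the counts at 6 and 24 h were 0 and 1, and with only the 2 groups the count at 6 h was 0. The filter on a mean of 5 left no gene of the 10 in TT-SLAM-seq. Leaving out 1 library gave 0 to 1 genes at 2 h and 6 h and 1 at 24 h in TT-SLAM-seq, and 0 to 1 at 2 h and 1 to 2 at 6 h in RNA-seq. The replicate numbers did not pair the libraries (median correlation of deviations of same-numbered libraries 0.02 in TT-SLAM-seq and 0.03 in the time course). With the replicate block the TT-SLAM-seq counts were 0 at 6 h and 1 at 24 h, and Fam208a and Hells lost their interaction (adjusted p = 0.0699 and 0.0524). Of the gene and library pairs with a promoter peak, 29 of 30 for H3K27ac at 24 h became 18 with the 10000 highest peaks. For H3K9me3, 3 in DMSO and 2 at 24 h became 0 and 0 at a −log10 q of 5, and 0 and 1 with the 10000 highest. For MED23 at 24 h 13 of 20 became 5 and 6, and for Pol II at 24 h 20 became 13 at that q. At the recovered depth, nascent reads per gene and library ran from 46 to 7399, which limits small nascent differences.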

Other observations

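All 10 genes had a lower mean level in the shERV line in DMSO than in the tagged line in DMSO, with ratios from 0.516 (Hells) to 0.899 (Fam208a). The 2 sets of libraries were made with different kits, and no test was run between them.

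Annotated genes on the opposite strand overlap 6 of the 10 genes. The highest of these in tagged DMSO cells were Ccdc66, which overlaps the end of Fam208a, at 13.7 TPM, Dclre1c, which overlaps Suv39h2, at 11.5 TPM, and Gm14820, which overlaps Suv39h1, at 7.68 TPM.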
